A study of Mus musculus with 34 samples.

Results

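PolyA selection and rRNA pull-down are 2 ways of keeping ribosomal RNA (rRNA) out of an RNA-seq library, compared here in mouse liver: capture of polyadenylated RNA on oligo(dT), here called polyA selection, and removal of rRNA with hybridising probes, here called pull-down. The libraries were chosen by their column names, the 9 liver libraries of polyA selection and the 9 liver libraries of pull-down, which made up 18 of the 34 libraries of the series. Each method was run once at every combination of 3 PCR ramp rates (slow, medium, fast; how quickly the thermocycler changes temperature) and 3 fragment lengths (short, medium, long), so the methods could be matched by combination. The pull-down library with the slow ramp and long fragments held 1.13 M counts (M, 1e+06), against 23.4 to 39.2 M counts in the other 8, and it and its polyA partner were left out. The comparison therefore rested on 8 matched pairs, with 25.0 to 41.4 M counts in the polyA libraries.

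All of these libraries came from the liver RNA of 1 wild-type C57BL/6J mouse of 12 weeks, for which the labels name no engineered allele and no treatment. The submitters label this animal female in one place and male in another. In the 16 libraries the Y-linked genes Kdm5d, Uty, Ddx3y and Eif2s3y each had at least 125 counts per library, and Xist, the RNA that coats the inactive X chromosome, had at most 4. For polyA selection the kit was TruSeq Stranded mRNA and for pull-down it was TruSeq Stranded Total RNA, both from 200 ng of RNA, with adapters carrying unique molecular identifiers and 13 PCR cycles. All polyA libraries belonged to batch 1 and all pull-down libraries to batch 2, so method, kit and batch cannot be told apart in a direct comparison. Each batch also held 3 unselected liver libraries, made from 20 ng without any rRNA removal, which gave a reference inside each batch. The replicates are technical preparations of 1 RNA sample, so p-values measure the spread between preparations and not between animals.

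Most messenger RNAs end in a poly(A) tail that is added after cleavage of the primary transcript, and an oligo(dT) bead holds an RNA by that tail. Several abundant classes of RNA lack a tail. Replication-dependent histone mRNAs end in a conserved stem-loop, which the stem-loop binding protein recognises. Transcripts of RNA polymerase III, such as the 7SK RNA that restrains transcription elongation and the 7SL RNA of the signal recognition particle, end in a run of uridines, and small nucleolar RNAs are trimmed from introns. Malat1 ends in a triple helix made by cleavage at a tRNA-like structure. Pull-down does not depend on a tail and removes what its probes hybridise to.

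The 3′ ends printed here show the classes on which the comparison turned. They were read from the GENCODE M21 transcripts of mouse genome build GRCm38 in the sense of the transcript, with T for U. The first 5 are from histone genes with the stem-loop, and capitals mark the 16 bases that matched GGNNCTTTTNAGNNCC, searched on the transcript strand in the last 100 bases.
Hist1h4f (chr13:23551258-23551648, minus strand): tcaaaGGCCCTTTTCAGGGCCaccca
Hist1h3c (chr13:23744973-23745602, minus strand): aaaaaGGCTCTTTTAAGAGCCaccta
Hist1h2bb (chr13:23746734-23747241, plus strand): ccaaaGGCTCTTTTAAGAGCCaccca
Hist1h4h (chr13:23531050-23531519, plus strand): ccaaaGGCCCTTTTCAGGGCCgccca
Hist2h2aa1 (chr3:96245497-96246082, plus strand): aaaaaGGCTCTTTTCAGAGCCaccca

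The next 5 are from histone genes of the same family that have an annotated transcript with the polyadenylation signal AATAAA, in capitals, within its last 50 bases.
Hist1h1c (chr13:23738808-23740367, plus strand): gtatgcttctAATAAAaagcgtttag
Hist2h2be (chr3:96221119-96223738, plus strand): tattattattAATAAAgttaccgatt
Hist3h2a (chr11:58954685-58956830, plus strand): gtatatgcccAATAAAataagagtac
Hist1h4a (chr13:23760692-23761230, minus strand): aaattgagtaAATAAAccttgagtgc
Hist4h4 (chr6:136801553-136804415, minus strand): gaggagatgaAATAAAtac

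The last 4 show the final 40 bases of 3 small structured RNAs, with any closing run of T in capitals, and the longest run of A in Malat1, in capitals.
Rn7sk (chr9:78175303-78175633, minus strand): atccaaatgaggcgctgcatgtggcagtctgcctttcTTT
Scarna10 (chr6:125186359-125186683, minus strand): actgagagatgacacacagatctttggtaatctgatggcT
Snora73a (chr4:132352775-132352979, minus strand): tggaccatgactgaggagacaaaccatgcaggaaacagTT
Malat1 (chr19:5795690-5802672, minus strand): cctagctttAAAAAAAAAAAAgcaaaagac

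Rn7sk does not stand for every RNA of polymerase III. The annotated ends of Rpph1 and of both models of Rmrp, RNAs of ribonucleases P and MRP in the same list, held 0 closing T. Of all tested small noncoding genes, 4 of 73 (5.48%) had a transcript ending in TTT, against 1805 of 12684 protein-coding genes (14.2%). These 73 are mostly not RNAs of polymerase III, since 43 are typed as small nucleolar RNAs. The run of 12 A in Malat1 lay 298 bases from the 3′ end of the 6983-base transcript. A run of at least that length was present in a transcript of 13.7% of the tested long noncoding genes, 16.3% of the protein-coding genes and 0 of the 73 small noncoding genes. In both comparisons any transcript of a gene could count, and neither the length nor the number of transcripts was matched.

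The classes of RNA took very different shares of the counts. Protein-coding genes held 97.8% ± 0.25 of the counts in the polyA libraries and 72.2% ± 3.64 in the pull-down libraries (SD, n = 8 each), a difference of 25.7 percentage points that had the same sign in 8 of 8 pairs. Small noncoding genes held 0.00282% ± 0.000871 against 8.05% ± 0.688. Long noncoding genes held 0.423% ± 0.0224 against 0.579% ± 0.0382, and pseudogenes 1.43% ± 0.203 against 0.774% ± 0.124. Each of these 4 differences had the same sign in all 8 pairs, with a two-sided exact sign-flip p of 0.00781, the smallest that 8 pairs allow, and an adjusted p of 0.00977 over 10 measures. The 2 mitochondrial rRNAs held 14.2 to 23.5% of pull-down counts and 0.0487 to 0.107% of polyA counts, and no library of one method reached the range of the other.

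**Figure D1:**
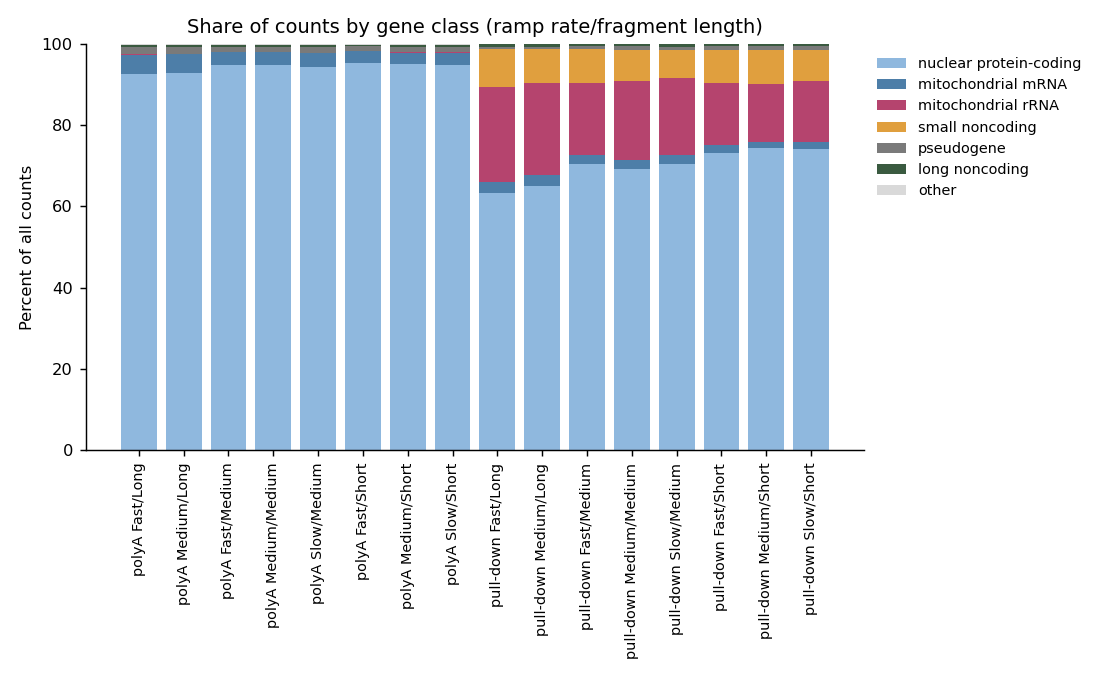
Percent of all counts (y axis) by gene class in the 8 polyA and 8 pull-down libraries (x axis, labelled by ramp rate and fragment length), with each bar summing to 100%. Nuclear protein-coding genes fill 92.5 to 95.4% of every polyA bar and 63.4 to 74.4% of every pull-down bar, where mitochondrial rRNA and small noncoding RNA take most of the remainder.

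Gene by gene, the edgeR quasi-likelihood test called 10855 of 13943 tested genes different between the methods (77.9%, adjusted p under 0.05), 5538 higher in polyA (39.7%) and 5317 lower (38.1%). Most of these differences were small: the median size over all tested genes was 0.34 on the log2 scale. At least 2-fold differences were called for 551 genes higher in polyA (3.95%) and 1334 lower (9.57%), a balance that turned to 1199 higher and 796 lower under library-total scaling. Of the 10855 calls, 8704 had the same sign in all 8 pairs, and for 5030 the libraries of the methods did not overlap. All log2 differences are polyA minus pull-down after TMM scaling, levels are CPM relative to the scaled library totals, and values of a group are given as lowest, median and highest of 8 libraries. Scaling by library totals instead moves the median log2 difference of all genes up by 0.33 and the split of calls from 51.0% to 75.0% higher in polyA. Since method and batch coincide, calls were also counted after subtracting the difference between the unselected libraries of the batches, and that count is given beside a gene list where a count in either direction differs by more than 1.5 times. This batch subtraction called 2206 of 15382 genes higher in polyA (14.3%) and 2690 lower (17.5%).

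Small structured RNAs were lower in polyA without exception among those tested: 73 of 73 small noncoding genes, with a median log2 difference of -8.50, or -8.32 with the 12 genes that were at 0 in 1 group set at the bound that 3 counts over the group allow. The 7SK RNA Rn7sk had 0.885, 1.104 and 2.37 CPM in polyA and 8149, 8758 and 13539 CPM in pull-down, a log2 difference of -12.81 ± 0.09 (SE; edgeR adjusted p = 8.11e-23). Rn7s1, a 7SL gene, had 11.3, 17.3 and 28.8 CPM against 64608, 76657 and 100735 CPM (-12.07 ± 0.16). Neither gene's groups came near each other. Small RNAs near 0 in polyA passed the filter on low counts through the pull-down libraries, so these counts describe the tested genes only.

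The RNA subunit of ribonuclease P, Rpph1, had 0.208, 0.231 and 0.607 CPM in polyA and 710.2, 1504 and 2375 CPM in pull-down (log2 difference -12.40). Both annotated models of Rmrp, the RNA of ribonuclease MRP, which overlap on chromosome 4 and can share reads, were lower by more than 10 on the log2 scale (-10.79 and -11.22). With Vaultrc5 (-6.11), 6 of the 9 structured RNA genes in the list were tested and all 6 were lower. Scarna10, a guide RNA of the Cajal body, had 1 count in the 8 polyA libraries together and 11084 in the 8 pull-down libraries.

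All 19 tested members of a list of 134 named small nucleolar and Cajal body RNAs were lower in polyA, with a median log2 difference of -8.43 (-8.18 with 5 genes at 0 set at their bound). Only 19 passed the filter on low counts, and 82 of the 134 had no count in any of the 16 libraries. Snora73a had 0.0506, 0.119 and 0.234 CPM in polyA and 90.04, 104 and 242 CPM in pull-down (-9.996), and Scarna13 had at most 0.0910 CPM against at least 37.5 CPM. Of 11 U RNA genes 3 were tested and all 3 were lower. Rnu3a, a gene of the U3 nucleolar RNA, had no count in any polyA library and was at least 923-fold lower. The related Rnu3b2 differed by -8.61, and Rnu12, the U12 RNA of the minor spliceosome, had 1 count in the polyA libraries together and 203 in pull-down.

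The genes that host small nucleolar RNAs in their introns did not share this pattern. Of 15 tested host genes 5 were higher in polyA, 3 were lower and 7 were not called, with a median of 0.00 beside 0.01 for all genes. After the batch subtraction 2 were called higher and none lower. Gas5 had 47.8, 51.6 and 83.1 CPM in polyA and 42.2, 49.5 and 76.5 CPM in pull-down (log2 difference 0.12), with overlapping groups. Snhg17 was 0.34 higher. Snhg11 was the member that stood apart, at 19.5, 21.4 and 25.9 CPM against 4.001, 4.19 and 5.204 CPM (2.29 ± 0.05; edgeR adjusted p = 1.46e-16). Under library-total scaling 11 of the 15 were called higher and none lower.

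Replication-dependent histone mRNAs, the S-phase histones of the nucleosome core and linker, were mostly at or near 0 in polyA libraries. Of 70 such genes 32 were tested, 30 were lower, 25 of them at least 2-fold, and none was higher. The median log2 difference was -6.45, or -6.18 with 3 genes at 0 in polyA set at their bound, and 5 of the 70 genes had no count in any of the 16 libraries. The tested members also passed the filter mainly through pull-down. The linker histone gene Hist1h1e had 0, 0.111 and 0.246 CPM in polyA and 31.8, 41.2 and 44.6 CPM in pull-down (-8.36 ± 0.12; edgeR adjusted p = 1.89e-19). The H4 genes Hist1h4d, Hist1h4c and Hist1h4h differed by -8.48, -8.12 and -5.92, and Hist1h4f, at 0 in every polyA library, was at least 208-fold lower.

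A smaller set of histone genes was present in polyA libraries. Hist1h2bc, an H2B gene, had 59.6, 64.8 and 83.1 CPM in polyA and 48.4, 66.2 and 71.6 CPM in pull-down, a difference of 0.09 that was not called (edgeR adjusted p = 0.117). Hist2h2be, at 0.910, 1.34 and 1.82 CPM against 1.09, 1.33 and 1.74 CPM, was not called either (-0.11, adjusted p = 0.477). The linker histone gene Hist1h1c was lower by less than 2-fold, with 17.6, 19.4 and 22.0 CPM against 25.3, 33.4 and 36.5 CPM (-0.73). Hist3h2a (-0.55) and Hist1h4i (-0.95) also differed by less than 2-fold.

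The printed 3′ ends divide the family only in part, and neither element separated the genes that were lower from those that were present. The stem-loop pattern was found in 12 of the 32 tested histone genes (37.5%) and in 1 of 12652 other tested protein-coding genes (0.0079%). AATAAA lay in the last 50 bases of a transcript of 7 of the 32 histone genes (21.9%) and of 77.8% of the other protein-coding genes, and 13 of the 32 held neither. The 7 genes with AATAAA included the 3 just described with differences of -0.73, -0.55 and -0.11, and also Hist1h4a (-7.11), Hist4h4 (-5.32), Hist2h4 (-4.52) and Hist1h2be (-3.70). The median log2 difference was -6.45 for the 12 genes with the pattern and -6.32 for the 20 without it. Hist2h2aa1 and the near-identical Hist2h2aa2 hold the stem-loop and differed by only -0.94 and -0.99, and reads can be divided between these copies.

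Replacement histones, which are made throughout the cell cycle from polyadenylated mRNA, showed small differences of the other sign. Of 10 tested genes 8 were higher in polyA, 1 was lower and 1 was not called, with a median of 0.25, and after the batch subtraction 4 were called higher and none lower. Relative to the median of coding genes in the same bin of length and GC content, their median was 0.16. H3f3a, a gene of histone H3.3, had 101, 111 and 115 CPM in polyA and 85.8, 90.1 and 98.3 CPM in pull-down (0.26). The second H3.3 gene H3f3b (0.08) and the linker histone H1f0 (0.13) differed less. The 1 lower gene, H2afz, had overlapping groups (-0.23) and turned to 0.10 under library-total scaling.

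Named long noncoding RNAs were mostly lower in polyA: 8 of 11 tested were lower, 2 were higher and 1 was not called, with a median of -0.79. After the batch subtraction 7 were called lower and 1 higher, and Meg3 lost its call. Malat1, a nuclear-speckle RNA, had 101, 122 and 187 CPM in polyA and 2064, 2365 and 3131 CPM in pull-down (-4.23 ± 0.04; edgeR adjusted p = 1.51e-21), an 18.8-fold difference. Neat1, the scaffold of paraspeckles, had 86.1, 89.8 and 105 CPM against 339.7, 363 and 402 CPM (-1.98). Both were lower than unselected RNA of the same batch in each method, Malat1 by -5.14 in polyA and -0.995 in pull-down, and Neat1 by -3.08 and -1.11. Kcnq1ot1, a nuclear antisense RNA of an imprinted locus, had 0.947, 1.33 and 2.11 CPM against 54.9, 61.5 and 67.6 CPM (-5.47). In the opposite direction, Firre, an X-linked nuclear RNA, had 52.6, 54.8 and 58.7 CPM against 21.3, 24.3 and 27.1 CPM (1.18), and the imprinted Meg3 had 3.51, 4.19 and 4.57 CPM against 1.87, 2.13 and 2.58 CPM (0.93).

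Over all 794 tested long noncoding genes the calls were close to balanced, 232 higher and 269 lower, with a median of -0.00. Intronic sense transcripts were the exception, with 47 of 61 lower, 5 higher and a median of -4.17. Among them 6 were at 0 in 1 group. Members near 0 in polyA passed the filter on low counts through pull-down, so the count describes the tested genes only. After Firre, the long noncoding genes with the largest positive differences at 10 CPM or more in the higher group, with separate groups, were C4a (0.84), Ctcflos (0.41) and the miR-22 host gene Mir22hg (0.36), of which the last was close to the median size of 0.34 over all genes. Ctcflos is an antisense gene, and the strand setting of the counting is not given in the sources used here, so its reads cannot be told apart from those of its partner.

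Mitochondrial RNAs split by kind. The rRNAs mt-Rnr1 and mt-Rnr2 were lower in polyA: mt-Rnr2 had 232, 290.1 and 561 CPM against 129986, 178681 and 248148 CPM (-9.06 ± 0.09; edgeR adjusted p = 2.04e-21), and mt-Rnr1 had 198, 252 and 443 CPM against 20477, 26151 and 40999 CPM (-6.63). Against the unselected libraries of batch 2, pull-down differed by 0.17 for mt-Rnr2 and -2.34 for mt-Rnr1, whereas polyA differed from those of batch 1 by -8.65 and -8.80. The 22 mitochondrial tRNA genes had no count in any of the 16 libraries.

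Mitochondrial mRNAs were divided among themselves, with 8 of 13 higher in polyA, 4 lower and 1 not called, and a median of 1.16. After the batch subtraction 8 were called higher and 1 lower. Subunits of complex I led the higher genes. mt-Nd4 had 2534, 2959 and 4698 CPM in polyA and 434, 597 and 845 CPM in pull-down (2.44 ± 0.06; edgeR adjusted p = 1.95e-16), mt-Nd5 differed by 2.43 and the overlapping mt-Nd4l by 2.84. mt-Cytb, the cytochrome b of complex III, had 3939, 4499 and 6544 CPM against 1788, 2136 and 2458 CPM (1.16), and mt-Nd1 was 0.59 higher with overlapping groups. mt-Co1, a core subunit of complex IV, was not called (-0.06, adjusted p = 0.425).

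For these 3 complex I mRNAs the larger departure was on the pull-down side of the within-batch comparisons. Against unselected libraries of the same batch, pull-down was lower by -3.05 for mt-Nd4, -3.58 for mt-Nd5 and -3.85 for mt-Nd4l, and polyA by -0.42, -1.04 and -0.80. mt-Co3, a complex IV subunit, went the other way (-1.50) and depended on fragment length: pull-down had 6536 and 7296 CPM in the 2 long libraries and 728 to 1487 CPM in the short ones, while polyA stayed between 556 and 1087 CPM.

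Nuclear rRNA itself was scarce in both methods by the gene model that carries it. CT010467.1, an rRNA gene on chromosome 17, had 1359, 1815 and 2156 CPM in polyA and 99.3, 172 and 254 CPM in pull-down (3.39 ± 0.18; edgeR adjusted p = 9.87e-12). Lars2, a mitochondrial leucyl-tRNA synthetase gene whose counts differed likewise, had 103, 143 and 189 CPM against 10.99, 18.1 and 23.7 CPM (3.06). Relative to unselected libraries, the log2 differences were -11.09 and -11.40 in polyA and -14.38 and -14.54 in pull-down. The pull-down library that was left out was the exception, at 145736 CPM for CT010467.1 and 23468 CPM for Lars2, and with it and its partner included neither gene was called.

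**Figure D2:**
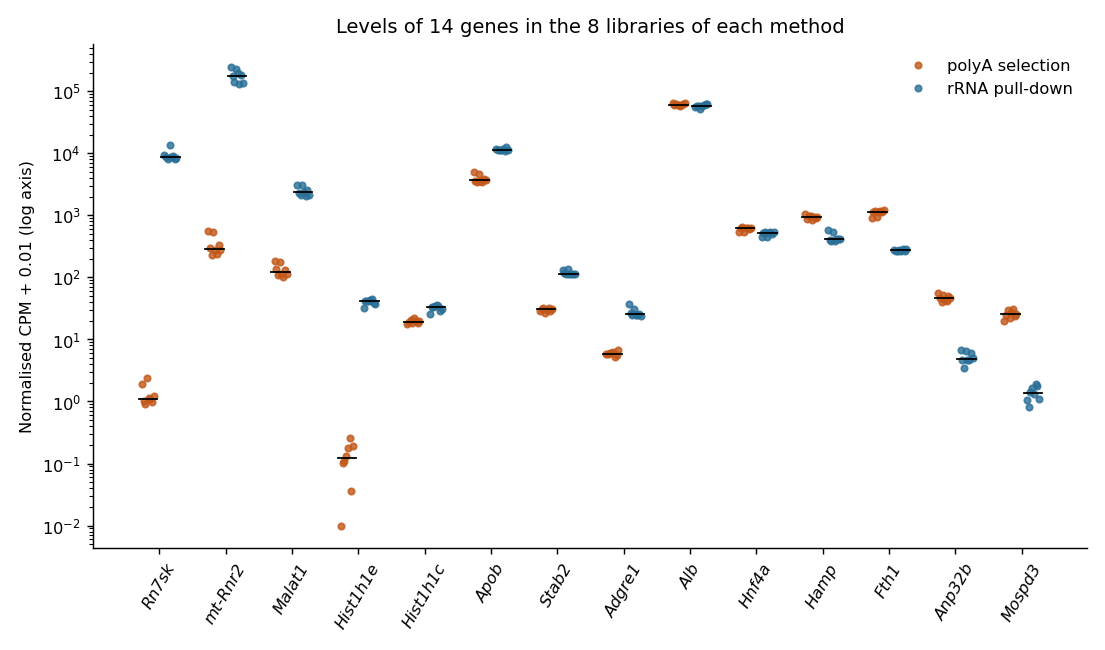
Normalised CPM plus 0.01 (log y axis) of 14 genes (x axis) in each of the 8 polyA and 8 pull-down libraries, with 1 point per library and a bar at the median. Rn7sk, mt-Rnr2, Malat1 and Hist1h1e are separated by more than 10-fold, and Alb overlaps between the methods.

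Among protein-coding genes at 10 CPM or more in the higher group, those with the largest positive differences included Mospd3, Anp32b, Hmgn5, Lars2 and Taf15. Mospd3 (chr5:137596645-137601058), a motile-sperm-domain protein of the endoplasmic reticulum, had 19.7, 25.5 and 30.5 CPM in polyA and 0.798, 1.37 and 1.88 CPM in pull-down (4.25 ± 0.09; edgeR adjusted p = 5.40e-17), a 19.0-fold difference. Anp32b (chr4:46450902-46472657), an acidic nuclear histone chaperone, had 40.8, 46.5 and 55.4 CPM against 3.41, 4.89 and 6.86 CPM (3.18). Hmgn5 (chrX:109004534-109013404), a nucleosome-binding protein, had 30.4, 36.2 and 48.1 CPM against 2.93, 3.79 and 5.81 CPM (3.16). In all of them every polyA library lay above every pull-down library.

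Taf15 (chr11:83473086-83506743), an RNA-binding protein associated with the general transcription machinery, had 44.4, 47.0 and 64.1 CPM in polyA and 4.99, 5.65 and 9.27 CPM in pull-down (3.00).

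For Mospd3, Anp32b, Hmgn5 and Taf15 the larger departure from the unselected RNA was on the pull-down side. Pull-down was lower than the unselected libraries of its batch by -3.31 for Mospd3, -2.32 for Anp32b, -2.30 for Hmgn5 and -2.71 for Taf15, all called. PolyA differed from the unselected libraries of its own batch by 0.60, 0.83, 0.92 and 0.36, in the same order and also called. The rRNA digestion libraries, made in batch 2 like the pull-down libraries, were higher than pull-down by 3.65 for Mospd3, 1.74 for Anp32b, 0.37 for Hmgn5 and 1.49 for Taf15. In the left-out pull-down library the levels were 14.2 CPM for Mospd3, 10.2 for Anp32b, 7.12 for Hmgn5 and 23.4 for Taf15, each above the range of the other 8.

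Genes of liver function were among the higher ones too. Rbp4, the plasma carrier of retinol, had 1527, 1877 and 1924 CPM in polyA and 450.5, 476 and 498 CPM in pull-down (1.93 ± 0.04; edgeR adjusted p = 1.37e-16), a 3.80-fold difference. Fth1, the ferritin heavy chain that stores iron, had 898, 1139 and 1202 CPM against 267, 274 and 287 CPM (1.99). Pull-down was below the unselected libraries by -1.32 for Rbp4 and -1.36 for Fth1, and polyA above them by 0.57 and 0.59. Hamp, the iron-regulating hormone hepcidin, had 843, 958 and 1035 CPM against 382, 412 and 579 CPM (1.099).

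**Figure D3:**
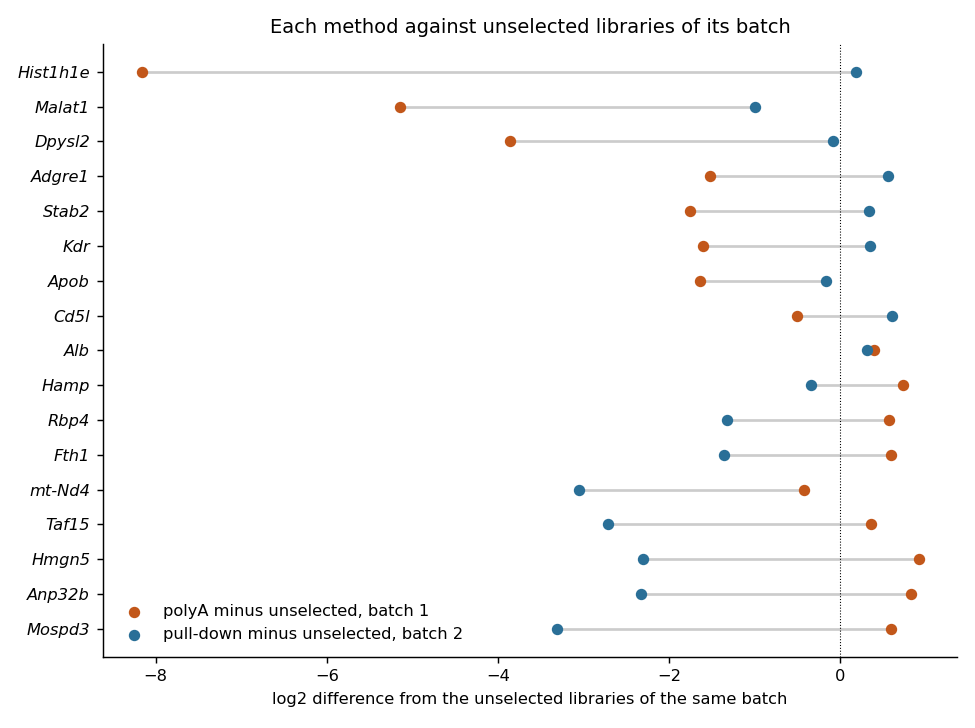
Log2 difference of each method from the 3 unselected libraries of its own batch (x axis) for 17 genes (y axis), with polyA and pull-down joined by a line. For Mospd3 and Taf15 the pull-down points lie below -2.5 and the polyA points at 0.60 and 0.36, while for Dpysl2 and Apob the polyA points lie below -1.5 and the pull-down points near 0.

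On the lower side, beyond the histones, the coding genes with the largest differences at that level included Dpysl2, a collapsin response mediator protein of the cytoskeleton. It had 0.937, 1.19 and 1.91 CPM in polyA and 13.5, 13.9 and 19.9 CPM in pull-down (-3.57 ± 0.06; edgeR adjusted p = 3.27e-18). Here the polyA side departed from unselected RNA, by -3.85, and the pull-down difference of -0.08 was not called.

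Markers of Kupffer cells (the resident macrophages of the liver) and of its sinusoidal endothelium were a coding group that was lower in polyA. Of 18 such markers 18 were lower, 12 of them at least 2-fold, with a median of -1.20 beside 0.02 for all coding genes. Among all 12691 coding genes 4858 were lower (38.3%), 1056 of them at least 2-fold. The libraries of the methods overlapped for none of the 18, and they did not overlap for 5030 of all 13943 tested genes. With library-total scaling 17 of the 18 were called lower. Together they held 0.0356 to 0.0380% of polyA counts and 0.0662 to 0.0804% of pull-down counts.

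Stab2, a scavenger receptor of sinusoidal endothelium (chr10:86841198-87008025), had 26.3, 30.7 and 32.2 CPM in polyA and 112, 115 and 135 CPM in pull-down (-1.99 ± 0.05; edgeR adjusted p = 5.11e-16). Kdr, a receptor for vascular endothelial growth factor, had 22.0, 22.8 and 26.0 CPM against 84.1, 88.9 and 112 CPM (-1.99). Adgre1, the F4/80 antigen of macrophages, had 5.14, 5.92 and 6.70 CPM against 23.8, 25.3 and 36.9 CPM (-2.18). The related scavenger receptor Stab1 (-1.48), the macrophage colony-stimulating factor receptor Csf1r (-1.48) and the macrophage-secreted Cd5l (-1.13) followed.

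The smallest differences in this group were those of the endothelial lectin Clec4g (-0.65), the scavenger receptor Marco (-0.58) and the lysosomal Cd68 (-0.44). Within batches the group's median was -0.73 in polyA and 0.47 in pull-down relative to the unselected libraries. For Adgre1 these were -1.52 and 0.56, for Stab2 -1.76 and 0.33, for Kdr -1.60 and 0.35 and for Cd5l -0.50 and 0.61. With the batch difference of the unselected libraries subtracted, 16 of the 18 were still called lower (median -1.14). Their median merged exon length was 2853.5 bp and their median GC content 51.1%. Relative to the median of coding genes in the same bin of length and GC, 18 of 18 were negative, with a median of -1.25. The rRNA digestion libraries of batch 2 were also below pull-down for this group, with a median difference of -0.72 beside -0.04 for all coding genes.

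Hepatocyte markers moved the other way, and by little. Of 8 markers 7 were higher in polyA and none was lower, with a median of 0.25, or 0.13 relative to length and GC. Hnf4a, a transcription factor of hepatocyte identity, had 541, 617 and 647 CPM in polyA and 442, 517 and 548 CPM in pull-down (0.26), and Apoa1 had 7738, 7872 and 8310.0 CPM against 4829.9, 5401 and 5716 CPM (0.58). Cyp2e1, a cytochrome P450 that metabolises ethanol, differed by 0.28. Alb, the mRNA of albumin, had 58069, 61424 and 64701 CPM against 51755, 58894 and 62644 CPM, a difference of 0.07 with overlapping groups (edgeR adjusted p = 0.0302), and it was not called with all 9 pairs or with the batch difference subtracted. Heart markers, listed as a check on tissue, reached at most 12 counts in any of the 16 libraries, and none of the 8 passed the filter on low counts.

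Plasma protein genes were mostly a little higher in polyA, with 27 of 35 higher and 3 lower (median 0.23), and 16 called higher and 2 lower after the batch subtraction. Relative to length and GC the median was 0.06. Apoe was 0.42 higher. The lower ones included Trf, the iron carrier transferrin, with 13289.7, 14125 and 14579 CPM against 14823, 16294 and 16652 CPM (-0.19), which turned to 0.14 under library-total scaling. The summed share of these genes in nuclear coding counts was 24.7% ± 0.405 in polyA and 24.6% ± 0.557 in pull-down (SD, n = 8 each), a difference that did not pass the exact sign-flip test (adjusted p = 0.32).

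Apob, the mRNA of the lipoprotein scaffold, was the plasma protein gene with the largest fall, and it is also one of the longest liver mRNAs. It had 3403, 3705 and 4973 CPM in polyA and 10885, 11425 and 12869 CPM in pull-down (-1.58 ± 0.05; edgeR adjusted p = 1.64e-14), a 2.98-fold difference with no overlap. Against unselected RNA it was lower by -1.64 in polyA and by -0.16 in pull-down, the latter not called.

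Differences in other metabolic groups were small. Of 63 tested cytochrome P450 genes 36 were higher and 11 lower (median 0.18; 21 and 5 after the batch subtraction), with no call for Cyp3a11 (-0.04) or Cyp2c29 (-0.00). Of the 8 urea cycle genes 4 were higher and 2 lower (2 and 2 after the batch subtraction), beside 39.7% higher and 38.1% lower among all genes, with a median of 0.00 relative to length and GC. Ass1, argininosuccinate synthase, was 0.31 higher, and Cps1, the entry enzyme of the cycle, had 3723, 3879.9 and 4234 CPM against 5605, 5766 and 6132 CPM (-0.57). Of 77 tested nuclear genes of oxidative phosphorylation 58 were higher and 5 lower (median 0.20), and 24 and 1 were called so after the batch subtraction. Their median relative to length and GC was 0.05. Among them Sdha was at 0.43, Atp5b at 0.12 and Atp5a1 at -0.06, of which the last turned to 0.27 under library-total scaling.

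Regulators were mixed. Of 19 hepatocyte transcription factor genes 10 were higher and 4 lower (median 0.11; 5 and 4 after the batch subtraction), and relative to length and GC the median turned to -0.08, with 12 of 19 negative. Cebpa was at 0.18, but at 0.01 and not called after the batch subtraction (edgeR adjusted p = 0.97), and Rxra was not called (0.04). Of 17 tested immediate early genes 8 were higher and 5 lower (median 0.06, or -0.07 relative to length and GC; 4 and 2 after the batch subtraction). With library totals 12 of these were higher and 2 lower, and of the transcription factor genes 15 and 2, beside 8790 and 2933 of all 13943 genes. Zfp36, which promotes decay of AU-rich mRNAs, had 63.7, 75.1 and 84.0 CPM against 34.2, 45.2 and 49.6 CPM (0.77), and neither Dusp1 (0.06) nor Junb (-0.01) was called. Adult globin genes, a sign of blood, were within 0.26 in either direction, with Hbb-bs at -0.25, Hba-a2 at 0.26 and Hba-a1 not called. After the batch subtraction 1 of the 4 was called lower and none higher, and Hba-a2 was at -0.00328. All 4 globin genes were called higher under library-total scaling.

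Cytosolic ribosomal protein genes were called higher for 53 of 79 and lower for 10 (median 0.18), with Rpsa at 0.33, Rpl4 at 0.26 and Rps2 at 0.17. After the batch subtraction 24 were called higher and 2 lower, or 17 higher with all 9 pairs, and relative to length and GC the median was 0.04. Their summed share of nuclear coding counts was 1.59% ± 0.0632 in polyA and 1.497% ± 0.175 in pull-down, higher in 6 of 8 pairs (exact sign-flip adjusted p = 0.0781). Their processed pseudogenes showed larger values, with 13 of 18 tested higher and 1 lower (median 1.69), but only 2 were called higher and none lower after the batch subtraction. The pseudogenes are near-identical to the genes, so the estimated counts of both are uncertain.

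Some of these pseudogenes depended on fragment length. Rps16-ps2, Rps23-ps1 and Rpl28-ps1 were at 0 in both long pull-down libraries and at 31 to 71 CPM in the 2 long polyA libraries. Over all 8 pairs their log2 differences were 2.93, 1.64 and 1.77. The 3 pseudogenes with the largest positive differences at the level used above were Gm5641 (38.4, 44.5 and 77.1 CPM against 0, 0.576 and 2.96 CPM; 5.67), Tpt1-ps3 (2.93) and Rps16-ps2. On the lower side 2 met the same conditions, Gm10033 (-1.35) and Gm16332 (-0.75).

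Length and base composition of the transcript went with the direction of the difference. Among nuclear coding genes with up to 1 kb of merged exons, 61.7% were higher in polyA and 16.9% lower (median 0.22), and among those over 10 kb 15.8% were higher and 74.6% lower (median -0.45). Genes of up to 40% GC had a median of -0.53, with 76.9% lower, and genes over 60% GC a median of 0.30, with 62.7% higher. In combination, the median was 0.29 for genes of up to 2 kb and over 55% GC, and -0.46 for genes over 5 kb and up to 45% GC. Genes over 5 kb with more than 55% GC had a median of 0.19.

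**Figure D4:**
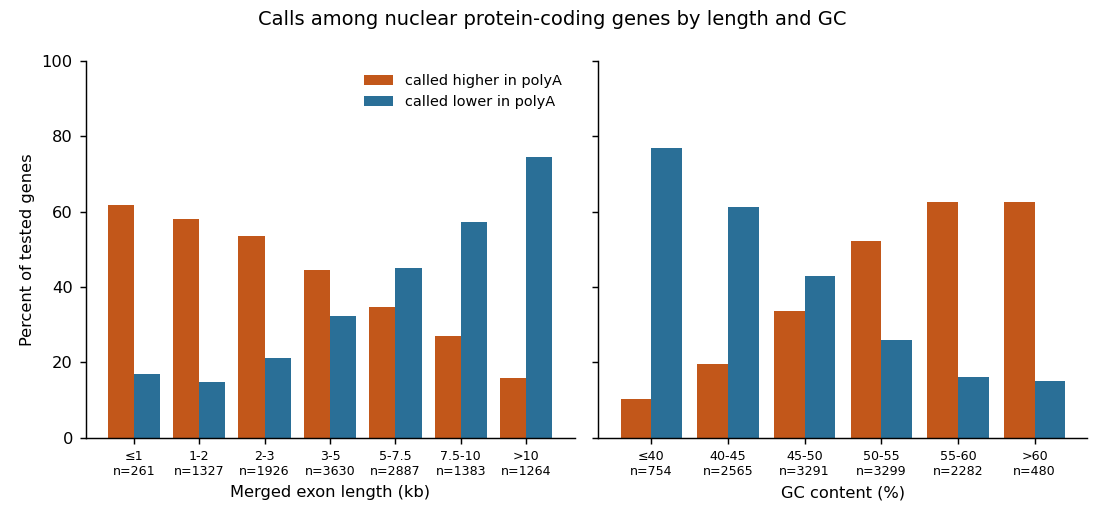
Percent of tested nuclear protein-coding genes called higher or lower in polyA (y axis) by merged exon length in kb (left) and GC content in percent (right), with the number of genes under each pair of bars. Calls pass from 61.7% higher at up to 1 kb to 74.6% lower above 10 kb, and from 76.9% lower at up to 40% GC to 62.7% higher above 60%.

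The share of nuclear coding counts in genes over 5 kb was 27.4% ± 0.309 in polyA and 31.3% ± 0.381 in pull-down, and the share in genes under 1 kb was 3.42% ± 0.454 against 3.06% ± 0.477 (SD, n = 8; both with the same sign in 8 of 8 pairs, exact sign-flip adjusted p = 0.00977). Of 29 tested giant transcripts 27 were lower and 2 higher (median -0.94, or -0.58 relative to genes of the same length and GC). Macf1, a cytoskeletal crosslinker, had 96.98, 98.9 and 105 CPM against 291, 301 and 328 CPM (-1.61), and the extracellular matrix gene Hmcn1 differed by -2.76 and the scaffold Ahnak by -2.51. The endocytic receptor Lrp1 (-0.15) and the ubiquitin ligase Huwe1 (-0.18) differed little, and both turned positive under library-total scaling (0.18 and 0.15). The exceptions were the histone methyltransferase genes Kmt2a (0.64) and Kmt2d (0.43).

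Among 25 short mRNAs 20 were higher and 1 lower (median 0.40, or 0.23 relative to length and GC; 11 and 0 after the batch subtraction), including the fatty acid binding protein Fabp1 (0.42) and the ferritin light chain Ftl1 (0.42). The 1 lower gene, Sec61g, rested on the long pull-down libraries, which had 62.0 and 31.2 CPM. The Zfp900-series zinc finger genes, many of the KRAB repressor type, were lower for 42 of 48 and higher for 1 (median -0.92, or -0.56 relative to length and GC), with Zfp970 at -0.77, Zfp950 at -0.81 and Zfp945 at -0.87. After the batch subtraction 14 were called lower and none higher (median -0.70). Of the Y-linked genes Ddx3y (-0.75), Kdm5d (-0.46) and Uty (-1.93) were lower and Eif2s3y was not called (-0.05).

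**Figure D5:**
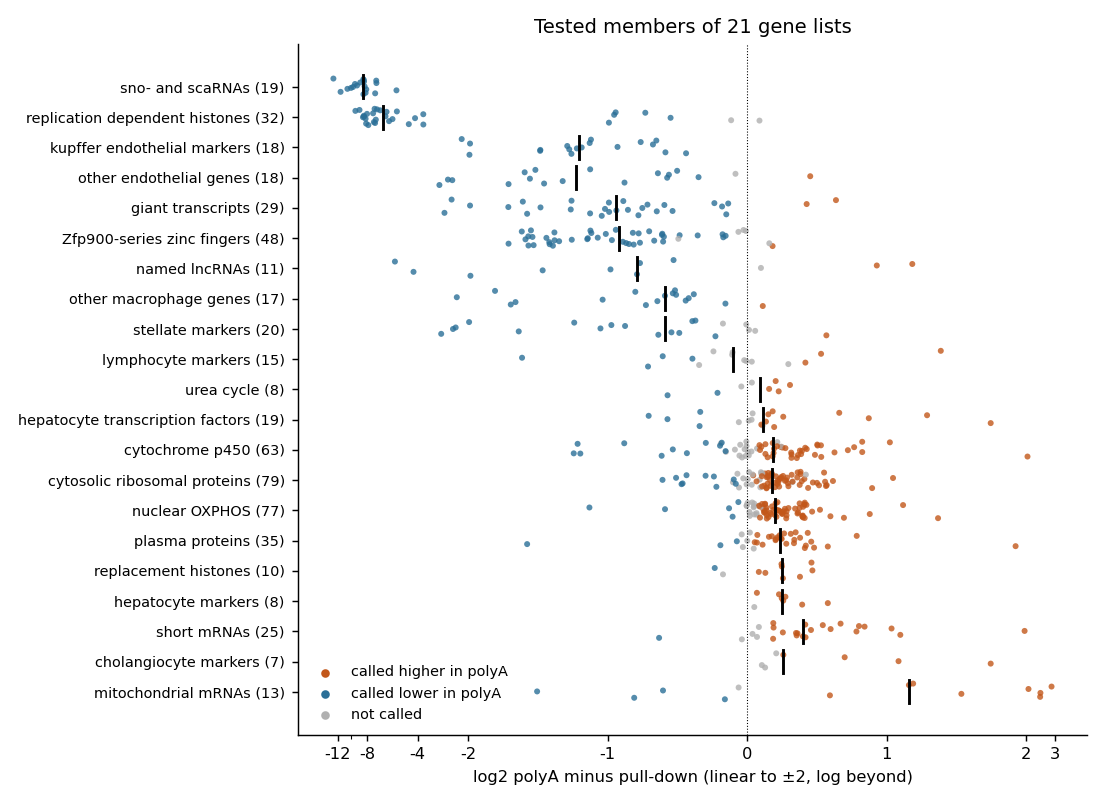
Log2 difference, polyA minus pull-down (x axis, linear to ±2 and logarithmic beyond), of each tested member of 21 gene lists (y axis, number tested in brackets), with a bar at the list median. Sno- and scaRNAs and replication-dependent histones have medians of -8.43 and -6.45, the Kupffer and endothelial markers of -1.20, and the mitochondrial mRNAs of 1.16.

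The 6 unselected libraries gave the difference between the batches without any selection step. Between batch 1 and batch 2 unselected libraries, 39 of 10642 genes were called (0.366%), 16 higher and 23 lower in batch 1, with a median size of 0.11 on the log2 scale against 0.34 between the methods. The 2 medians are over different sets of genes, 10642 and 13943. The calls rest on 3 libraries per batch against 8 per method, so neither contrast is like for like. Of the 36 of these genes that were also tested between the methods, 32 were called there, beside 77.9% of all tested genes. Of the 10855 genes called directly, 9905 kept their sign after the batch subtraction and 4580 were called in the same direction, and of the 1885 at least 2-fold, 1433 were. The subtraction both removes a difference between the batches and adds the error of the unselected libraries, and their parts in the fall in calls were not told apart. Of the genes named here that were called directly, Hist1h4i, Hist2h2aa1, Hist2h2aa2, H1f0, H2afz, Gas5, Snhg17, Meg3, Ctcflos, Marco, Cd68, Alb, Apoe, Atp5b, Atp5a1, Cebpa, Hba-a2, Rps2, Rps23-ps1, Rpl28-ps1, Zfp945 and Sec61g were not called after it.

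Read against unselected RNA of the same batch, more genes were at least 2-fold lower than higher in both methods. PolyA had 363 genes at least 2-fold higher (2.36%) and 1803 at least 2-fold lower (11.7%) than unselected batch 1. Pull-down had 203 at least 2-fold higher (1.32%) and 634 at least 2-fold lower (4.12%) than unselected batch 2. These comparisons include the difference in RNA input.

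Dependence of the method difference on fragment length was called for 1521 of 13943 genes (10.9%, edgeR interaction test, joint over medium against short and long against short), 1214 of them with a more positive and 307 with a more negative fitted difference in long than in short fragments. With all 9 pairs the count was 324, and by DESeq2 957. Dependence on the ramp rate was called for no gene by edgeR (0%), with 289 at an unadjusted p under 0.05 and 1 gene by DESeq2. The Kupffer and endothelial median was -1.17, -1.13 and -1.35 in short, medium and long fragments. Apob differed by -1.66, -1.69 and -1.29.

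Detection at equal depth was lower in polyA, by an amount and in a direction that depended on the settings. With each library thinned to 23376037 counts, 12350.4 protein-coding genes had at least 10 counts in polyA and 12426.0 in pull-down, 75.6 fewer in polyA and lower in 8 of 8 pairs (exact sign-flip adjusted p = 0.00977). Long noncoding genes numbered 686.6 and 705.6, a difference of -19.0. With mitochondrial and rRNA genes and Lars2 out of the total the differences were -278.5 and -82.1, and at a minimum of 1 count -50.2 and -198.5. Both turned positive at a minimum of 50 counts (38.4 and 22.3) and with all 9 pairs, where the depth was set by the library of 1.13 M counts. At 50 counts the coding difference did not pass the exact sign-flip test (adjusted p = 0.13), and the long noncoding one did (adjusted p = 0.0112).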

How the data were processed

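The deposited table gave expected counts (estimated counts) per gene, 1 column per library, for 51368 genes. Per the submitters' processing notes the tools were Salmon 1.9.0, UMI-tools 1.1.1 and R 4.4.0 with build GRCm38, and their roles, the transcript set and the strand setting are not given in the sources used here. Salmon divides reads among similar transcripts, so counts of near-identical copies are uncertain. All 34 value columns belong to labelled libraries.

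Expected counts were rounded to whole numbers. Symbols, types, lengths and sequences came from GENCODE M21 on GRCm38, which matched 50896 genes (the other 472 held at most 0.0452% of any library). Methods were compared with edgeR 4.0.16 (R 4.3.3, limma 3.58.1): filterByExpr, TMM scaling, ramp rate and length as covariates, quasi-likelihood F-test and Benjamini-Hochberg adjustment over all tested genes, calling genes at an adjusted p under 0.05. A standard error is the size of the log2 difference divided by the square root of F. Comparisons with unselected libraries used 31 liver libraries, without the slow-ramp, long-fragment pair. This was chosen after seeing the data, because the shallow library held 145736 CPM of the rRNA gene CT010467.1, against at most 254 in the other 8 pull-down libraries. Shares and detection (thinning seed 11) were tested over 8 pairs by two-sided exact sign-flips in Python 3.11.15 (numpy 2.4.6, pandas 2.3.3, scipy 1.17.1). The floor for a group at 0 was 3 counts over the group, and such bounds cover counting error only. Libraries of a group differed by more than counting noise, with a chi-square of at least 1.46 per gene for every pair.

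Genes were named by a rule: among calls with separate groups and a mean of at least 10 CPM in the higher group, the 6 coding, 4 noncoding and 3 pseudogenes with the largest difference in each direction, and the 3 most abundant tested members of each list. Other genes named were chosen after their values were seen. Some items that the rule names are not reported here. The members and lists were chosen with earlier results of these data known. The script was tested on simulated counts. Alternatives were DESeq2 1.42.0, other scalings, no filter, all 9 pairs, a block of matched combinations, all 33 liver libraries and subtraction of the batch difference.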

Additional observations from a re-analysis of the deposited data

Results flagged for a closer look

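In 14 of 280 groups of 8 values, 1 library stood apart from the other 7 by Dixon's criterion at 95% (for values reaching at least 1 CPM), and chance alone gives about 1 in 20 groups. In every case it was a long-fragment library with a fast or medium ramp. The fast-ramp pull-down library was low for the histone genes Hist1h4d (6.89 CPM, others from 16.5), Hist1h4h (7.95 CPM, others from 20.8) and Hist1h2bc (48.4 CPM, others from 61.6). It was high for the 7SL gene Rn7s1 (100735 CPM, others to 79879 CPM) and for Sec61g (62.0 CPM, others to 31.2), and it was low for protein-coding genes detected at equal depth (12330.0, others from 12413).

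The medium-ramp pull-down library was high for Rn7sk (13539 CPM, others to 9492), for the lincRNA model of Rmrp (366 CPM, others to 152), for H3f3b (122 CPM, others to 103) and for the histone genes Hist2h2aa1 (23.0 CPM, others to 13.1), Hist1h2be (6.15 CPM, others to 4.05) and Hist4h4 (4.15 CPM, others to 2.34). The medium-ramp polyA library with long fragments was high for H2afz (48.1 CPM, others to 34.8), and the fast-ramp one for Marco (7.42 CPM, others to 6.53).

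The method difference also depended on fragment length for 37 of the genes in the text, by the edgeR interaction test over all genes, which is joint over medium against short and long against short. Among all tested genes 1521 of 13943 (10.9%) were called by this test, and 324 with all 9 pairs. The values that follow are the log2 method difference in long minus short fragments. Of the 18 Kupffer and endothelial markers 6 were called, each more negative in long fragments: Stab2 by -0.44, Stab1 by -0.37, Cd5l by -0.49, Adgre1 by -0.48, Clec4f by -0.33 and Csf1r by -0.40, as were the macrophage genes C1qa (-0.34) and C1qb (-0.62) and the endothelial gene Ly6e (-0.25).

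Liver mRNAs were divided. Alb (0.17), Cyp3a11 (0.37), Cyp2e1 (0.21), Cyp2c29 (0.14), Ass1 (0.20) and Apob (0.40) were more positive, and Hamp (-0.41), Rbp4 (-0.35), Fth1 (-0.37) and Sec61g (-1.87) were more negative. The globin genes Hba-a2 (0.35) and Hba-a1 (-0.47), near-identical copies between which reads can be divided, had opposite signs. Of the other genes, H3f3a (0.18), Zfp970 (0.58), Ctcflos (0.34), Gm10033 (0.40), Gm16332 (0.39), Ddx3y (0.38), Uty (0.33) and Eif2s3y (0.52) were more positive.

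Among mitochondrial genes, mt-Co1 (0.37), mt-Cytb (0.26) and mt-Rnr2 (0.34) were more positive in long fragments, and mt-Nd4l (-0.60) and mt-Co3 (-3.05) more negative. The pseudogenes Rps16-ps2 (11.61), Rps23-ps1 (13.61) and Rpl28-ps1 (11.83) had fitted values that depend on the prior count, since both long pull-down libraries were at 0.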

How the results depend on the processing

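Method and batch coincide, and each combination was prepared once from 1 RNA sample. Expected counts of near-identical copies are uncertain, and genes under a few counts per library were not tested, which leaves 38 of 70 histone genes and 115 of 134 small nucleolar RNAs outside the tests. Of 1288 gene values under alternatives, 1195 kept direction and side of the threshold, 71 lost the call, 13 gained it and 9 changed sign, and of 250 list counts 207 stayed within 1.5 times. The cause of changes not stated here was not tested.

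With the batch difference of the unselected libraries subtracted, 4489 genes were called (2026 higher, 2463 lower), and 4896 (2206 and 2690) without the slow-ramp, long-fragment pair. With library totals 8790 were called higher and 2933 lower, with 1199 and 796 at least 2-fold. With no filter 3343 were at least 2-fold different (938 higher, 2405 lower). Of the unselected batches' 39 calls, library totals gave 103, DESeq2 7, and leaving out 1 replicate between 12 (without batch 1 replicate 1) and 68 (without batch 2 replicate 1). A replicate block gave 91, but same-numbered libraries did not deviate together (r of 0.02, -0.03 and -0.09), so the numbers do not pair them. Blocking by matched combination gave 10738 calls between the methods against 10855.

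Dependence on fragment length was called for 324 genes with all 9 pairs and 957 by DESeq2, and on ramp rate for 1 by DESeq2. Detection turned to 564.8 and 21.3 more coding and long noncoding genes in polyA with all 9 pairs, and to 38.4 and 22.3 at a minimum of 50 counts, where the coding difference did not pass the exact sign-flip test. Under library totals Trf (0.14), Atp5a1 (0.27), Lrp1 (0.18), Huwe1 (0.15), Hbb-bs (0.0747) and H2afz (0.10) turned positive. With the batch difference subtracted Cebpa was -0.0934 and H2afz 0.000236, and without the slow-ramp, long-fragment pair Hba-a2 was -0.00328.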

Other observations

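Further lists of liver cell types were written after the result for Kupffer and endothelial markers was seen, so they describe and do not support it. Of 18 other endothelial genes 16 were lower in polyA and 1 was higher (median log2 difference -1.22), and of 17 other macrophage genes 16 were lower and 1 was higher (-0.59; 12 and 0 after subtracting the batch difference). With library totals the medians were -0.89 and -0.26, and 11 of the macrophage genes were called lower and 2 higher. F8, the coagulation factor made by sinusoidal endothelium, had 5.40, 7.14 and 9.35 CPM in polyA and 39.7, 51.9 and 75.6 CPM in pull-down (lowest, median and highest of 8 libraries; -2.96), and the mannose receptor Mrc1 differed by -2.33. The complement genes C1qa (-0.52), C1qb (-0.44) and C1qc (-0.38) differed less. Ly6e was the higher endothelial gene (0.45).

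Of 20 stellate cell genes 15 were lower and 1 was higher (-0.59), and with library totals 12 were lower and 4 higher (-0.26). The hepatocyte growth factor gene Hgf had 2.22, 2.91 and 4.03 CPM against 18.5, 21.3 and 28.2 CPM (-2.89). Lymphocyte genes were mixed, with 4 of 15 lower and 3 higher (-0.10, 0.23 under library-total scaling and -0.26 relative to coding genes of the same length and GC), and after subtracting the batch difference none was called lower and 1 higher. Cholangiocyte genes were higher for 4 of 7 tested and lower for none (0.26). Periportal hepatocyte genes were higher for 6 of 7 and lower for none (0.34, or 0.10 relative to length and GC), and pericentral ones higher for 4 of 8 and lower for 2 (0.06, or 0.10), with 2 and 1 after subtracting the batch difference.

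The slow-ramp, long-fragment pair entered none of the calls, so its values can be set beside them. Of all 13943 tested genes 8087 were higher and 5802 lower in polyA in this pair, with a median log2 difference of 0.15. Of 551 genes called at least 2-fold higher in polyA, 441 were higher in this pair (80.0%), with a median log2 difference of 0.62 there and 1.12 over the 8 pairs (both with a pseudocount of 1 CPM). Of 1334 called at least 2-fold lower, 936 were lower (70.2%; -0.59 against -0.98). Of the Kupffer and endothelial markers 17 of 18 were lower, of the tested histone genes 28 of 32, and of the giant transcripts 26 of 29. Of the short mRNAs 19 of 25 were higher and 6 lower, and of the hepatocyte markers 7 of 8 were higher. In the shallow pull-down library Fth1 was at 565 CPM, against 267 to 287 in the other 8, Rbp4 at 707, against 450.5 to 498, and mt-Nd5 at 794, against 271 to 401.

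The spread between libraries was similar in both methods. Over 6688 coding genes the median SD of log2 levels was 0.113 in polyA and 0.103 in pull-down, and it was larger in pull-down for 43.3% of them.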
